A study of Mus musculus with 19 samples.

Results

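The Gimap genes (GTPases of immunity-associated proteins) form a small family, and its 8 members in the mouse files, Gimap1, Gimap3, Gimap4, Gimap5, Gimap6, Gimap7, Gimap8 and Gimap9, were followed here through thymocyte development. The members were taken by gene symbol, 8 of the 28692 genes in the files. The symbol rule uses no measured level, but the family was picked for description with earlier results of these data known. All 8 passed the filter on low counts in each comparison described below.

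GIMAP proteins bind guanine nucleotides and many are anchored to intracellular membranes, where they are known mainly for keeping lymphocytes alive. GIMAP5 is the member whose loss causes T cell lymphopenia in the rat and early death of naive T cells in the mouse, and it has been placed at lysosomes. GIMAP1 is a Golgi protein needed by mature T and B cells, GIMAP6 binds GABARAP-type proteins of the autophagy machinery, and GIMAP3 is a mouse protein that interacts genetically with GIMAP5. GIMAP4 has been tied to the timing of T cell death, GIMAP7 to activation of partner GIMAPs through dimers, and GIMAP8 carries several GTPase domains in one chain.

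RNA and surface proteins were measured together in single cells (CITE-seq, in which antibodies carry DNA barcodes that are counted beside the RNA) in thymi of mice aged 4 to 8 weeks. The 5 wild-type mice were C57BL/6, 3 of them sorted for CD5+TCRB+ thymocytes (replicates 1 to 3) and 2 of them unsorted (replicates 4 and 5). CD4-fated mice, 2 of each genotype, were AND, which carries an MHC class II-specific TCR transgene on a Rag1-/- background, OT-II, which carries another class II-specific TCR transgene, and MHCI-/-, which lacks B2m. CD8-fated mice, 2 of each genotype, were F5, which carries an MHC class I-specific TCR transgene on a Rag1-/- background, OT-I, which carries another class I-specific TCR transgene, and MHCII-/-, which lacks H2-Ab1. MHCI-/- and MHCII-/- thymocytes were sorted like wild-type replicates 1 to 3, and the TCR transgenic thymocytes were unsorted. AND and F5 thymocytes can form no TCR but that of the transgene, the labels name no Rag deletion for OT-I and OT-II, and wild-type and MHC-deficient mice hold diverse TCRs.

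Of 85389 barcodes in 19 lanes, 72054 cells were kept and 64659 fell into 6 stages set by surface protein, after cells with B cell, myeloid or hemoglobin RNA had been left out. No Gimap value took part in the gating. These were CD4+CD8+ double-positive (DP) cells without or with surface CD69, the early activation antigen that marks recent TCR signalling (18850 and 25810 cells), and TCRB+ single-positive (SP) cells with or without CD24, which is lost as SP cells mature. CD4 SP cells numbered 9358 with and 4594 without CD24, and CD8 SP cells 3609 and 2438. Marker RNA was compared between gates in the 5 wild-type mice. Zbtb7b, which encodes the CD4 lineage factor THPOK, stood at 48.7 to 74.0 UMIs (unique molecular identifiers, each standing for 1 counted RNA molecule) per 1000000 (CPM) in CD4 SP CD24- cells and at 0 to 4.34 CPM in CD8 SP CD24- cells, while Nkg7 stood at 2.67 to 35.5 CPM and 292 to 688 CPM. Arpp21, a marker of DP cells, stood at 605 to 1406 CPM in DP CD69- and 93.02 to 1339 CPM in DP CD69+ cells against 1.74 to 149.8 CPM in the SP gates, so DP CD69+ and SP ranges overlapped. S1pr1, which encodes the receptor used for exit from the thymus, stood at 61.8 to 157 CPM in SP CD24+ and 121 to 439 CPM in SP CD24- gates. UMIs were summed over the cells of a mouse in a gate, and the mouse was the replicate. RNA UMIs per lane ranged from 9893333 to 43303999 and the median per kept cell from 1519 to 7259. AND replicate 2 kept 42.1% of its barcodes, the lowest share of any lane. Lanes shared at most 35 barcodes (1.27% of the smaller lane). Sorted wild-type mice came from experiments 1 and 2 and unsorted ones from experiment 3, so sort and experiment cannot be told apart among wild-type mice, while the unsorted AND and F5 mice came from experiments 1 and 2.

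The 8 genes lie together on chromosome 6 of GRCm38, between bases 48647234 and 48770851 (123618 bases, GENCODE vM21). Their order along the chromosome is Gimap8 (chr6:48647234-48660875, plus strand), Gimap9 (chr6:48676129-48679114, plus), Gimap4 (chr6:48684549-48692060, plus), Gimap6 (chr6:48701582-48708225, minus), Gimap7 (chr6:48718621-48724636, plus), Gimap1 (chr6:48739054-48743795, plus), Gimap5 (chr6:48746197-48754210, plus) and Gimap3 (chr6:48764464-48770851, minus). Of 40 other annotated genes within 250 kb on either side, 26 were in the files and 0 reached a mean of 20 CPM in wild-type gates. Transcripts of Gimap3 and Gimap5 share 190 words of 50 bases (7.52% of the smaller of the pair), so reads from those stretches cannot be assigned to one of them, whereas the other 27 pairs of members share 0. Gm28053, a read-through gene, overlaps members over 6448 bases and had a mean of 1.01 CPM.

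Promoters of Gimap3, Gimap4 and Gimap7, whose RNA rose in wild-type mice at the CD69 step and at both entries into the SP stage described below, and of Gimap9, whose RNA rose there at the CD69 step and fell on entry into the CD8 SP stage, are shown so that a reader can compare the DNA just upstream of genes that moved together and apart. Each line is the 250 bases before the RefSeq gene start, 5′ to 3′ on the gene's strand (GRCm38.p6), with capitals marking matches to AGGAAG or its reverse complement CTTCCT, the core letters read by Ets factors.
Gimap3 (chr6:48770852-48771101, minus): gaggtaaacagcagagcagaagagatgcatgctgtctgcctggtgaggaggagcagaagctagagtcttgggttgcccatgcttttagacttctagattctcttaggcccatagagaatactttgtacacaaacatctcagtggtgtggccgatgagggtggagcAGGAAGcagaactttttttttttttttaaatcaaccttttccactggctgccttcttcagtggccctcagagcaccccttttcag
Gimap4 (chr6:48684328-48684577, plus): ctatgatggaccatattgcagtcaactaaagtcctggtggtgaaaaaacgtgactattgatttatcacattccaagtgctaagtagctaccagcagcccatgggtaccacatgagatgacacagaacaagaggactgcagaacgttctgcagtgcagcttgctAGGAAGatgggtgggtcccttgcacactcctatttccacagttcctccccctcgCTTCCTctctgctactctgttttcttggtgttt
Gimap7 (chr6:48718371-48718620, plus): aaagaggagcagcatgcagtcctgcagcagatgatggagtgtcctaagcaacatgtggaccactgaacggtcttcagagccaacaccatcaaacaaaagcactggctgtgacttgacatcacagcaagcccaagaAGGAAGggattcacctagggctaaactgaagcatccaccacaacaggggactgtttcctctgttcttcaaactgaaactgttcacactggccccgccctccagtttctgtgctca
Gimap9 (chr6:48675885-48676134, plus): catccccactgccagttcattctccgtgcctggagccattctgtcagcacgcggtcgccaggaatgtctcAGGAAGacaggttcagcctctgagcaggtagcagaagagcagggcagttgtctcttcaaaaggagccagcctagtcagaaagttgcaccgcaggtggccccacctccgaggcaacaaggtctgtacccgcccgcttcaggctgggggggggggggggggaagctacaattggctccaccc

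RefSeq gave 9 such windows for the 8 members, because Gimap8 has 2 starts. The Ets letters AGGAAG were found on either strand in 7 of the 9, at least 1 window each of Gimap1, Gimap3, Gimap4, Gimap5, Gimap7, Gimap8 and Gimap9, and in 29.5% of all 32851 windows of that length. The Runx letters TGTGGT were in 3 of the 9 (Gimap1, Gimap4 and Gimap7) and in 14% of all windows. The E-box letters CAGGTG were in 1 of the 9 (Gimap9) and in 17.2% of all windows. None of these motifs contains another, and the Gimap6 window held none of these exact runs of letters. Other forms read by the same factors were not searched. A match is a run of letters only, and Gimap3, Gimap4, Gimap7 and Gimap9 all held the Ets letters although their RNA followed different courses.

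Across the 6 wild-type gates the members fell into different orders. Gimap3 was highest in CD4 SP cells, at 305 ± 33.8 CPM (SD, n = 5 mice) without CD24 and 226 ± 56.8 CPM with it. It stood at 203 ± 44.6 CPM in CD8 SP CD24- and 184 ± 39.8 CPM in CD8 SP CD24+ cells, then at 53.7 ± 33.2 CPM in DP CD69+ and 14.3 ± 8.76 CPM in DP CD69- cells. The only neighbours in that order whose ranges did not overlap were CD8 SP CD24+ and DP CD69+. Gimap4 stood at 472 ± 71.6 CPM in CD4 SP CD24+ and 448 ± 55.9 CPM in CD4 SP CD24- cells. Its CD8 SP levels, 247 ± 26.0 CPM without and 242 ± 26.3 CPM with CD24, lay below every CD4 SP value and above every DP CD69+ value (106 ± 68.2 CPM), and DP CD69- cells held 21.5 ± 14.3 CPM. Gimap5 had the opposite SP order, at 146 ± 19.8 CPM in CD8 SP CD24- and 138 ± 32.6 CPM in CD8 SP CD24+ cells against 81.4 ± 20.2 and 69.4 ± 17 CPM in the corresponding CD4 SP cells.

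Gimap6 and Gimap8 were highest on average in CD4 SP CD24+ cells, at 543 and 98.5 CPM, and lowest in DP CD69- cells, at 242 and 34.3 CPM. Gimap7 also peaked there, at 60.6 CPM against 12.5 CPM in DP CD69- cells. Gimap9 differed from the rest of the family in that its highest mean was in DP CD69+ cells (283.5 CPM) and its lowest in CD8 SP CD24- cells (108 CPM). This is an order of means over 5 mice. Gimap6 was higher in CD4 SP CD24+ than in DP CD69+ cells in 2 of 5 mice, the unsorted ones. In the 3 sorted mice Gimap6 was higher in DP CD69+ cells (730, 626 and 518 against 595, 537 and 474 CPM). Gimap8 was also higher there in those mice, by little (92.7, 104.1 and 73.1 against 90.9, 103.9 and 72.0 CPM). In unsorted replicate 5 Gimap9 stood at 144.1 CPM in DP CD69+ and 144.9 CPM in CD4 SP CD24+ cells. Gimap1 varied least, from 217 CPM in DP CD69- to 330 CPM in CD4 SP CD24- cells. Neighbouring gates overlapped in range for these 5 genes, and the plot of CPM by gate shows every mouse.

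**Figure D1:**
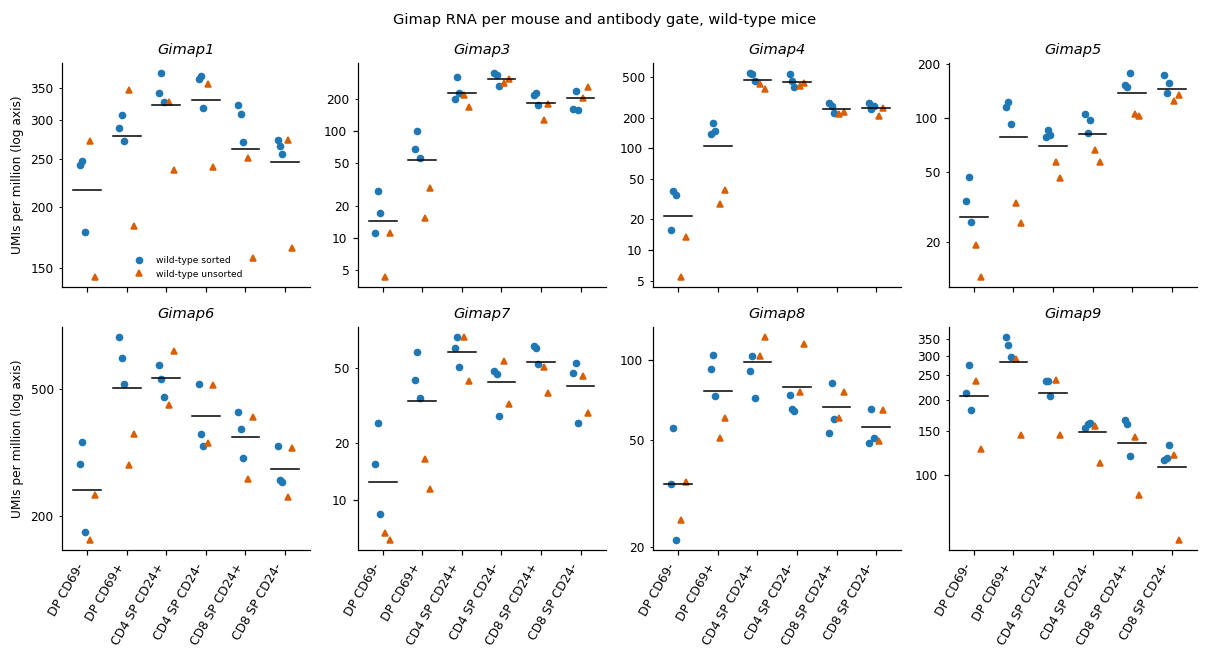
UMIs per 1000000 (log axis) of each Gimap gene in 6 antibody gates, with blue circles for the 3 sorted and orange triangles for the 2 unsorted wild-type mice and a line at the mean of the 5. Gimap3 and Gimap4 climbed from means of 14.3 and 21.5 CPM in DP CD69- cells to 305 and 448 CPM in CD4 SP CD24- cells, while Gimap9 had its highest mean in DP CD69+ cells at 283.5 CPM.

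The first comparison asked how Gimap RNA differed between DP cells with and without CD69 of the same mice, that is, between thymocytes with and without this surface mark of TCR signalling. The CD69 threshold was set in each experiment, at 15.8, 19.3 and 7.24 per 10000 antibody UMIs in experiments 1, 2 and 3, and in the unsorted wild-type mice of experiment 3 more DP cells lay above it (6502 and 4592) than below (3881 and 2722). How many of those above it had received a TCR signal was not tested. Values of single wild-type mice are given here and below in the order sorted replicates 1, 2 and 3, then unsorted replicates 4 and 5. Gimap4 stood at 15.8, 38.5, 34.5, 5.48 and 13.4 CPM in DP CD69- cells and at 138.5, 179, 147, 28.4 and 39.0 CPM in DP CD69+ cells. Gimap3 stood at 11, 27.6, 17.2, 4.34 and 11.2 CPM in the former and at 67.9, 99.7, 56.2, 15.2 and 29.4 CPM in the latter. Each mouse was higher with CD69, although with CD69 the 2 unsorted mice stayed below the sorted ones, and the ranges of the gates overlapped. In edgeR's quasi-likelihood test with the mouse as a block and Benjamini-Hochberg adjustment over 10518 genes, Gimap4 rose 4.86-fold (log2 2.28 ± 0.34 SE, adjusted p = 1.18e-05) and Gimap3 3.71-fold (log2 1.89 ± 0.31, adjusted p = 3.94e-05).

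All 8 members were called higher in DP CD69+ cells, where 32.7% of all genes tested were called and 16.6% were called higher. Gimap5 stood at 34.3, 46.8, 26.0, 19.3 and 12.8 CPM without and at 116, 123, 92.0, 33.4 and 25.8 CPM with CD69 (log2 1.34 ± 0.20, adjusted p = 1.26e-05). Gimap7, Gimap8 and Gimap6 rose by log2 1.35 ± 0.25, 1.12 ± 0.16 and 1.01 ± 0.13. Gimap9 and Gimap1 rose least, by log2 0.39 ± 0.09 and 0.33 ± 0.07. The median log2 difference was 1.23 over the members and 0.03 over all genes tested, and each member was higher in 5 of 5 mice. Within the 3 sorted mice all 8 members were called, where 43.6% of genes were, with Gimap4 at log2 2.35 and Gimap3 at 1.98. Within the 2 unsorted mice 6 were called, where 11.2% of genes were, with Gimap4 at 1.96 and Gimap3 at 1.60.

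Cycling cells differed in number between these gates. The summed level of 5 cycling markers (Mki67, Top2a, Birc5, Cdk1 and Ccna2) was 2140 to 4520 CPM in DP CD69- and 133 to 2620 CPM in DP CD69+ cells of the 5 wild-type mice, and the 2 unsorted mice held the highest values with CD69. Cycling-like DP cells had UMIs of at least 3 of these 5 markers. Their RNA UMIs per cell (total UMIs over cells in each mouse) had a median of 14340 over the mice, against 3104 in the other DP cells. In CPM they were low in several members. CPM are shares of the RNA UMIs of a set of cells, here and in all comparisons, and amounts per cell were not compared. Gimap6 stood at 78.8, 91.9, 57.5, 60.04 and 104 CPM in cycling-like DP cells and at 671, 620, 531, 342 and 441 CPM in the other DP cells, with no overlap. Gimap1 stood at 92.4, 112.5, 109, 109 and 62.7 CPM in cycling-like and at 335.5, 330.2, 311, 437 and 235 CPM in the other DP cells, again with no overlap. With cycling-like cells left out, in a fit added after seeing the data, 6 members were called in the CD69 comparison, where 16.4% of genes were called. Gimap4 (log2 1.64), Gimap3 (1.28), Gimap7 (0.77), Gimap5 (0.74) and Gimap8 (0.39) stayed higher, whereas Gimap1 was called lower with CD69 (log2 -0.22, adjusted p = 0.0394 in the same edgeR test). Gimap6 (log2 0.29, adjusted p = 0.0868) and Gimap9 (log2 -0.03, adjusted p = 0.852) were then not called.

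The course with surface CD69 was followed more finely by splitting the DP cells of each wild-type mouse into 5 equal parts, here called quintiles of rising CD69. Mean Gimap4 went from 14.01 CPM in the first to 155 CPM in the last quintile (11.1-fold) and mean Gimap3 from 9.73 to 76.6 CPM (7.87-fold). Gimap5 (4.24-fold), Gimap7 (3.94-fold), Gimap6 (2.76-fold) and Gimap8 (2.57-fold) followed. Gimap1 changed 1.38-fold, and Gimap9 went from 186.5 CPM to a peak of 306 CPM in the fourth quintile and 265 CPM in the last. The last quintile was above the first in 5 of 5 mice for each member. The quintiles include cycling-like cells, and in the fit without them, given above, Gimap1 was called lower with CD69 and Gimap6 and Gimap9 were not called.

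**Figure D2:**
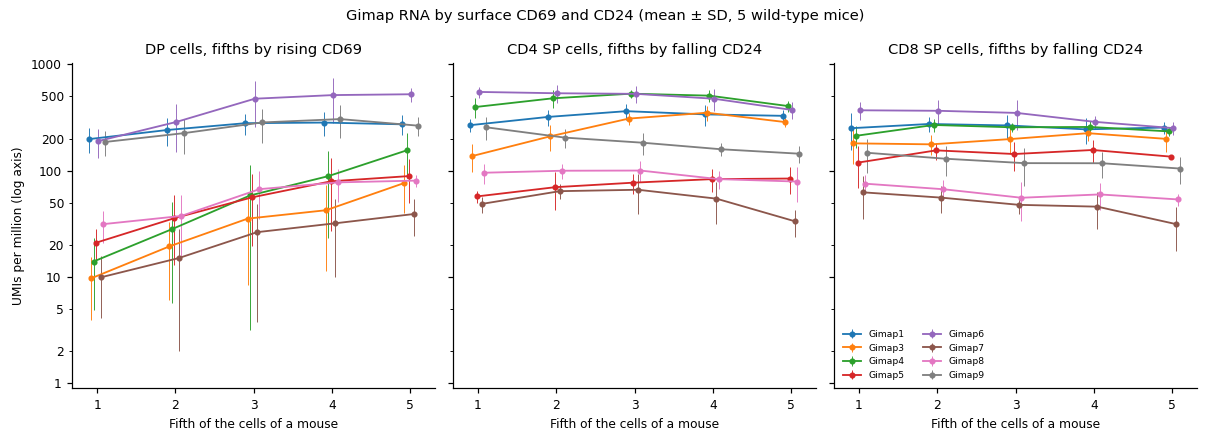
Mean UMIs per 1000000 (log axis, error bars SD over 5 wild-type mice) in quintiles of the cells of each mouse, for DP cells by rising surface CD69 and for CD4 SP and CD8 SP cells by falling surface CD24. Gimap4 rose 11.1-fold and Gimap3 7.87-fold over the CD69 quintiles, and in CD4 SP cells Gimap3 peaked at 351 CPM in the fourth CD24 quintile.

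From the DP CD69+ to the CD4 SP CD24+ stage, Gimap3 and Gimap4 rose again and by more than any other member. Gimap4 reached 547, 539, 464, 431 and 379 CPM in CD4 SP CD24+ cells, above every DP CD69+ value (28.4 to 179 CPM). Gimap3 reached 199, 319, 225.5, 217 and 167.5 CPM, also above every DP CD69+ value (15.2 to 99.7 CPM). The same edgeR fit gave a 5.88-fold rise for Gimap4 (log2 2.56 ± 0.31, adjusted p = 1.9e-07) and a 5.49-fold rise for Gimap3 (log2 2.46 ± 0.28, adjusted p = 6.31e-08).

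At this step 5 members were called higher and 0 lower, where 35.8% of genes were called and 17.6% were called higher. Gimap7 (log2 1.24 ± 0.23) and Gimap1 (0.39 ± 0.08) were higher in 5 and 4 of 5 mice by CPM. Gimap8 (log2 0.58 ± 0.16, adjusted p = 0.00457 by edgeR) was higher by CPM in 2 of 5 mice, the unsorted ones. Without unsorted replicate 4 it was not called (adjusted p = 0.0751). Gimap5 (log2 0.17, adjusted p = 0.536), Gimap6 (0.32, adjusted p = 0.0578) and Gimap9 (-0.20, adjusted p = 0.0909) did not pass by edgeR. Gimap6 passed without sorted replicate 1 or 2 (adjusted p = 0.0295 and 0.021) and Gimap9 without unsorted replicate 5 (0.02). By CPM, Gimap6 was lower in CD4 SP CD24+ cells of the 3 sorted mice (595, 537 and 474 against 730, 626 and 518). It was higher there in the 2 unsorted mice (447 and 661 against 288 and 362). Gimap5 was likewise lower in the sorted and higher in the unsorted mice. The median log2 difference was 0.48 over the members and -0.03 over all genes. The step was smaller in the 3 sorted mice (Gimap3 log2 1.92, Gimap4 1.95) than in the 2 unsorted mice (3.47 and 3.81), whose DP CD69+ levels were lower, and this difference was not tested.

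From DP CD69+ to CD8 SP CD24+, 4 members rose and 1 fell, where 35.1% of genes were called, 16.7% higher and 18.4% lower. Gimap3 stood at 215, 226.5, 174, 125 and 179 CPM in CD8 SP CD24+ cells, with no overlap with DP CD69+ (log2 2.14 ± 0.29, adjusted p = 1.42e-06). Gimap5 stood at 154, 149, 179, 106 and 103 CPM and rose in 5 of 5 mice (log2 1.18 ± 0.20, adjusted p = 4.6e-05), although its range overlapped that of DP CD69+ cells. Gimap9 was the member that fell, from 356.5, 331, 296, 290.4 and 144 CPM to 165, 159.8, 119.4, 142 and 83.5 CPM, lower in 5 of 5 mice (log2 -0.86 ± 0.10, adjusted p = 1.43e-07).

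Gimap4 rose by log2 1.61 ± 0.32 and Gimap7 by 1.07 ± 0.26 on entry into the CD8 SP stage. Gimap1 (log2 0.11, adjusted p = 0.289), Gimap6 (-0.28, adjusted p = 0.109) and Gimap8 (0.05, adjusted p = 0.883) did not pass. Gimap1 passed without unsorted replicate 4 (adjusted p = 0.0443) and Gimap6 without unsorted replicate 5 (0.0266). The median log2 difference was 0.59 over the members against -0.05 over all genes. In the sorted mice Gimap3 stood at log2 1.69 and Gimap5 at 0.77, and in the unsorted mice at 3.02 and 1.97, while Gimap9 stood at -0.90 and -0.73.

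Both entry steps were measured against the same DP CD69+ sums. The difference between them therefore equals the comparison of CD8 SP CD24+ with CD4 SP CD24+ cells, which was added after seeing the data. The study reports a CD4+CD8lo phase and a later DP phase for CD8-fated cells. Such cells were not separated in the DP CD69+ or CD4 SP CD24+ gates. The CD8-fated OT-I mice held 443 and 447 CD4 SP CD24+ cells, and the part of such cells in the wild-type gate was not tested. Gimap5 was higher on the CD8 side and 5 members were lower there, where 19.2% of genes were called, 9.6% higher and 9.61% lower. Gimap5 stood at 103 to 179 CPM in CD8 SP CD24+ and at 46.2 to 85.2 CPM in CD4 SP CD24+ cells, with no overlap (log2 1.01 ± 0.21, adjusted p = 0.00106). Gimap4, at 218 to 279 CPM against 379 to 547 CPM, and Gimap6, at 262 to 423 CPM against 447 to 661 CPM, were lower with no overlap (log2 -0.95 ± 0.30 and -0.61 ± 0.14).

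Gimap9 (log2 -0.66 ± 0.10), Gimap8 (-0.53 ± 0.18) and Gimap1 (-0.28 ± 0.08) were lower too, while Gimap3 (-0.31, adjusted p = 0.472 by edgeR) and Gimap7 (-0.18, adjusted p = 0.7) did not pass. With cycling-like cells left out only Gimap5 (log2 1.14), Gimap6 (-0.46) and Gimap9 (-0.59) stayed called, where 14.2% of genes were called. Calls of Gimap4, Gimap8 and Gimap1 also depended on single mice. Gimap4 was lost without any 1 of the sorted mice (adjusted p = 0.0857, 0.0695 and 0.0728). Gimap8 was lost without sorted replicate 1 or 3 (adjusted p = 0.1 and 0.0607) or unsorted replicate 4 or 5 (0.124 and 0.0701). Gimap1 was lost without sorted replicate 2 (adjusted p = 0.0507) or unsorted replicate 5 (0.104).

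**Figure D3:**
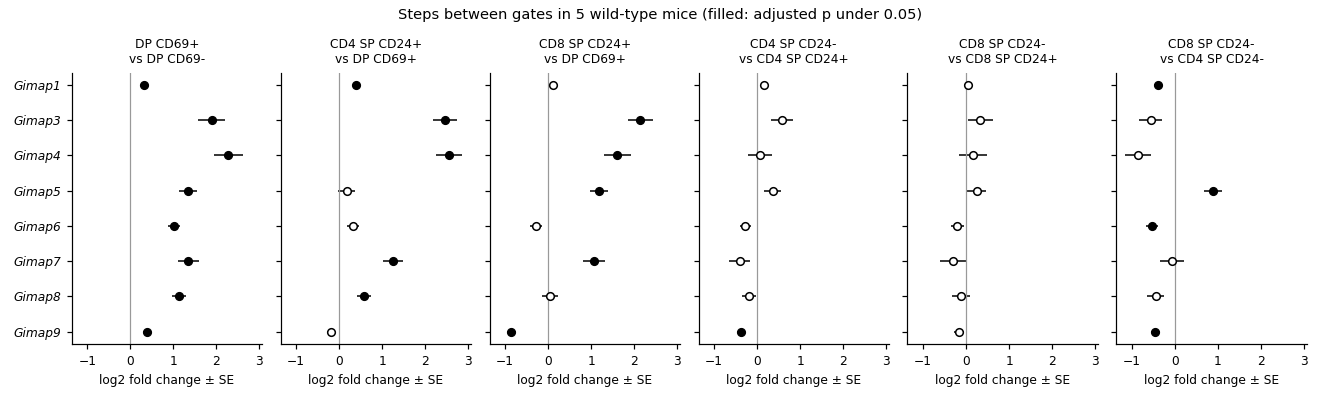
Log2 fold change ± SE of each Gimap gene from edgeR's quasi-likelihood fits over 5 wild-type mice in 6 comparisons of gates, filled where the adjusted p was under 0.05. Gimap3 and Gimap4 were filled at the CD69 step (1.89 and 2.28) and at both entries into the SP stage, and Gimap5 was the only member above 0 and filled in CD8 SP CD24- against CD4 SP CD24- cells (0.89).

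Cells with and without CD24 were compared within the SP stage. In CD4 SP cells 1 of 8 members was called, a share near that of all genes, of which 13.3% were called and 5.75% were called lower. The count was higher in sorted mice only, with thresholds raised or without cycling-like cells, and lower with thresholds lowered, as given below. Gimap9 went from 237, 237, 208, 240.2 and 145 CPM with CD24 to 155, 160.3, 162, 157 and 111 CPM without it, lower in 5 of 5 mice (log2 -0.38 ± 0.10, adjusted p = 0.00815 by edgeR), with overlapping ranges. That call was lost without sorted replicate 2 (adjusted p = 0.0516) or unsorted replicate 4 (adjusted p = 0.0522). Gimap3 was higher without CD24 in 5 of 5 mice but did not pass (log2 0.58 ± 0.25, adjusted p = 0.14, and 0.0367 without unsorted replicate 4), and 4 members had an unadjusted p under 0.05. The other 6 differed by log2 -0.41 (Gimap7) to 0.36 (Gimap5). Over quintiles of falling CD24, mean Gimap3 went through 137, 211, 309, 351 and 287 CPM, and Gimap9 went from 256.1 to 145 CPM.

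In CD8 SP cells 0 members were called between CD24+ and CD24- cells by edgeR or DESeq2 and 0 had an unadjusted edgeR p under 0.05, where 4.53% of genes were called, and their log2 differences ran from -0.30 (Gimap7) to 0.33 (Gimap3). Over the CD24 quintiles of CD8 SP cells, Gimap6 went from 370.1 to 252 CPM, Gimap7 from 62.7 to 31.6 CPM and Gimap9 from 147 to 105 CPM, each with the last quintile below the first in 5 of 5 mice. The difference between the CD8 and CD4 maturation steps was called for 0 members (0 at an unadjusted p under 0.05), where 0.038% of genes were called.

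Mature CD8 SP and CD4 SP cells of the same wild-type mice differed in 4 members, where 10.4% of genes were called, 4.9% higher and 5.5% lower in CD8 SP cells. Gimap5 stood at 174, 138.5, 157, 125 and 135 CPM in CD8 SP CD24- cells and at 105, 82.2, 97.0, 66.04 and 56.8 CPM in CD4 SP CD24- cells. The gates did not overlap, and Gimap5 was higher in CD8 SP cells by log2 0.89 ± 0.21 (adjusted p = 0.00498). Gimap1 (log2 -0.40 ± 0.08), Gimap6 (-0.53 ± 0.14) and Gimap9 (-0.45 ± 0.11) were lower in CD8 SP cells, and the Gimap6 call was lost without sorted replicate 1 (adjusted p = 0.0658 by edgeR).

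Gimap4 stood at 276, 243, 261, 207 and 250.4 CPM in CD8 SP CD24- cells, below every CD4 SP CD24- value (397 to 538 CPM), but did not pass in the edgeR fit over all 6 gates (log2 -0.86 ± 0.30, adjusted p = 0.0722, and 0.0334 without unsorted replicate 4). It was called within the sorted mice (log2 -0.80, adjusted p = 0.000214) and within the unsorted mice (-0.87, adjusted p = 0.0199). Gimap3 was likewise non-overlapping, at 156 to 256.2 CPM against 264 to 346 CPM, and did not pass (log2 -0.56, adjusted p = 0.209). It was called within the sorted mice (-0.73, adjusted p = 0.000373) and not within the unsorted ones (-0.34, adjusted p = 0.544). Gimap8 (log2 -0.45, adjusted p = 0.141) and Gimap7 (-0.07, adjusted p = 0.934) did not pass by edgeR.

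Lineage-restricted mice were compared over the CD69, entry and CD24 steps in fits that shared no mouse with the wild-type fits, and differences from wild-type steps were not tested. In the 6 CD4-fated mice, all 8 members were called higher in DP CD69+ than in DP CD69- cells, each in 6 of 6 mice, where 28.1% of genes were called and 13% were called higher. Gimap4 ranged from 2.71 CPM (median 30.1) to 82.2 CPM without CD69 and from 24.7 CPM (median 149.7) to 176 CPM with it (log2 1.82 ± 0.30, adjusted p = 0.000163). The lowest values in both gates came from OT-II, at 5.72 and 2.71 CPM without and 25 and 24.7 CPM with CD69. Gimap3 rose by log2 1.29 ± 0.32 (adjusted p = 0.0042), Gimap7, Gimap8, Gimap5 and Gimap6 by 0.96, 0.95, 0.86 and 0.73, and Gimap9 and Gimap1 by 0.34 and 0.29. With cycling-like cells left out only Gimap4 was called (log2 1.26, adjusted p = 0.008), where 9.62% of genes were called, and Gimap1 was below 0 (-0.15). The Gimap1 call of the full fit was also lost without MHCI-/- replicate 1 or 2 (adjusted p = 0.198 and 0.0548), AND replicate 2 (0.0653) or OT-II replicate 2 (0.089), and that of Gimap9 without MHCI-/- replicate 1 (0.114).

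On entry into the CD4 SP CD24+ stage of CD4-fated mice, 5 members rose and 1 fell, where 35% of genes were called, 17.8% higher and 17.1% lower. Gimap3 ranged from 109 CPM (median 272) to 342 CPM in CD4 SP CD24+ cells, against 10.1 to 90.15 CPM in DP CD69+ cells (log2 2.54 ± 0.28, adjusted p = 2.03e-07). Gimap4 rose by log2 2.23 ± 0.27, Gimap7 by 0.92, Gimap8 by 0.52 and Gimap1 by 0.42, and Gimap9 fell by 0.35 on the log2 scale. Gimap5 (log2 0.35, adjusted p = 0.0712) and Gimap6 (0.17, adjusted p = 0.23) did not pass by edgeR. The summed cycling markers ranged from 170 to 1162 CPM in DP CD69+ and from 76.7 to 312 CPM in CD4 SP CD24+ cells, and were lower in CD4 SP CD24+ cells in 5 of 6 mice. Without cycling-like cells the 6 calls and their directions remained, where 35.6% of genes were called. Gimap8 was lost without OT-II replicate 1 or 2 (adjusted p = 0.0697 and 0.0523), and Gimap5 passed without MHCI-/- replicate 1 or 2 (0.0118 and 0.0354). From CD24+ to CD24- cells, 0 members were called (1 at an unadjusted p under 0.05), where 6.32% of genes were called, with log2 differences from -0.21 (Gimap6) to 0.54 (Gimap3).

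In the 6 CD8-fated mice, 6 members rose with CD69 in DP cells, where 39.2% of genes were called and 16.8% were called higher. Gimap4 rose by log2 1.502 ± 0.25 and Gimap3 by 1.34 ± 0.22, and Gimap7, Gimap8, Gimap5 and Gimap6 by 1.24, 1.09, 0.83 and 0.76. Gimap1 (log2 0.19, adjusted p = 0.102 by edgeR) and Gimap9 (0.21, adjusted p = 0.0711) did not pass, but Gimap1 passed without F5 replicate 1 or 2 (adjusted p = 0.0043 and 0.0431) and so did Gimap9 (0.00868 and 0.0488). With cycling-like cells left out Gimap1 was called lower (log2 -0.24, adjusted p = 0.0142) and Gimap5 was not called (0.36, adjusted p = 0.0703), while Gimap4 (0.93) and Gimap3 (0.77) stayed higher, where 19% of genes were called.

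On entry into the CD8 SP CD24+ stage of CD8-fated mice, 2 members rose and 3 fell, where 27.5% of genes were called, 15.6% higher and 11.9% lower. Gimap6 fell from a range of 450 to 588 CPM (median 546) to one of 272 to 402 CPM (median 306), with no overlap (log2 -0.62 ± 0.11, adjusted p = 0.000233). Gimap9 (log2 -0.72 ± 0.09) and Gimap8 (-0.46 ± 0.11) also fell. Gimap3 (log2 0.71 ± 0.20, adjusted p = 0.0115) and Gimap5 (0.51 ± 0.17, adjusted p = 0.0268) rose. Cycling cells were present in both gates. The summed cycling markers ranged from 94.2 to 1217 CPM in DP CD69+ and from 43.8 to 1943 CPM in CD8 SP CD24+ cells, and were higher in CD8 SP CD24+ cells in 5 of 6 mice. Without cycling-like cells the 5 calls and their directions remained, where 21.6% of genes were called, with Gimap6 at log2 -0.502 (adjusted p = 2.11e-05 by edgeR), Gimap9 at -0.72, Gimap8 at -0.32, Gimap3 at 0.896 and Gimap5 at 0.63. The Gimap3 call was lost without F5 replicate 1 (adjusted p = 0.0666) or MHCII-/- replicate 2 (0.0579), and that of Gimap5 without MHCII-/- replicate 2 (0.0774) or OT-I replicate 1 or 2 (0.0522 and 0.0626). Gimap4 (log2 0.29, adjusted p = 0.371), Gimap1 (-0.04, adjusted p = 0.773) and Gimap7 (-0.34, adjusted p = 0.234) did not pass by edgeR. From CD24+ to CD24- cells 0 members were called (2 at an unadjusted p under 0.05), where 8.77% of genes were called, with log2 differences from -0.22 (Gimap6) to 0.50 (Gimap3).

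CD4-fated and CD8-fated mice were then compared in the same gates. A term in the edgeR fit set AND beside F5, OT-II beside OT-I and the MHC-deficient genotypes beside each other. The study reports that thymocytes of the CD8 lineage, unlike CD4-fated ones, return to a CD69+ DP phase after a CD4+CD8lo phase. The DP gates were set on CD4, CD8a and CD69 alone, here and in the steps above. Such later cells were therefore not separated from earlier DP cells. In DP CD69- cells 0 members were called (1 at an unadjusted p under 0.05), where 0.0508% of genes were called, and all 8 members had a log2 difference below 0, from -1.07 (Gimap4) to -0.00037 (Gimap9), with a median of -0.40 against 0.01 over all genes. In DP CD69+ cells 0 were called (4 at an unadjusted p under 0.05), where 0.28% of genes were called, and the members ran from -1.12 (Gimap7) to 0.10 (Gimap9). Gimap7 came nearest, at 11.4 to 41.0 CPM (median 30) in CD4-fated and 30.5 to 79.0 CPM (median 52.5) in CD8-fated mice (log2 -1.12 ± 0.26, adjusted p = 0.109). DESeq2 called Gimap7 there (adjusted p = 0.00788), and edgeR called it without F5 replicate 1 (adjusted p = 0.0492) or AND replicate 2 (adjusted p = 0.0284). The difference in the CD69 step itself between CD4-fated and CD8-fated mice was called for 0 members (0 at an unadjusted p under 0.05), where 0% of genes were called.

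OT-I mice stood apart for Gimap4 at the DP stage. Gimap4 in DP CD69- cells stood at 5.72 and 2.71 CPM in OT-II, at 5.48 and 13.4 CPM in the unsorted wild-type mice of the same experiment and at 133 and 145 CPM in OT-I mice. Gimap3 stood at 4.38 and 1.63 CPM in OT-II, at 4.34 and 11.2 CPM in those wild-type mice and at 47.2 and 62.4 CPM in OT-I mice. Both mice of OT-I lay above both mice of every other genotype for Gimap4 in this gate, while OT-II lay near the unsorted wild-type mice. For Gimap3, AND replicate 2 (53.8 CPM) and F5 replicate 1 (53.5 CPM) lay between the 2 OT-I mice. The values of OT-II replicate 2 rest on 5 Gimap4 and 3 Gimap3 UMIs. The OT-I sums hold 206 and 94 cells, with 58 Gimap4 and 25 Gimap3 UMIs in replicate 2. A fit on the OT pair alone called both genes (Gimap4 log2 -4.98, adjusted p = 0.0185, and Gimap3 log2 -4.01, adjusted p = 0.035, by edgeR), with 2 mice a genotype, where 0.121% of genes were called.

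Mature cells of their own lineage were compared between CD4-fated (CD4 SP CD24-) and CD8-fated (CD8 SP CD24-) mice, 11 mice in all because F5 replicate 2 had 17 CD8 SP CD24- cells and was left out. Here 3 members were called, where 8.26% of genes were called, 4.1% higher and 4.16% lower in CD4-fated mice. Gimap3 ranged from 206 to 422 CPM (median 309.7) in CD4-fated mice and stood at 261, 183, 181, 154 and 209 CPM in F5 replicate 1, both MHCII-/- mice and both OT-I mice, with overlapping ranges (log2 0.64 ± 0.16, adjusted p = 0.0207). Gimap4 was higher (log2 0.64 ± 0.19, adjusted p = 0.0481) and Gimap5 lower (-0.62 ± 0.18, adjusted p = 0.0488) in CD4-fated mice. Gimap9 (log2 0.45, adjusted p = 0.079), Gimap8 (0.41), Gimap6 (0.38), Gimap1 (0.38) and Gimap7 (0.095) did not pass by edgeR. With pairs of the same replicate number as a block, 6 were called, the 3 above and Gimap1, Gimap6 and Gimap9 (adjusted p = 0.00909, 0.0281 and 0.016 by edgeR), a fit that leaves out AND replicate 2 and called 16.6% of genes. By pair of genotypes, Gimap5 differed by log2 -0.34 (AND with F5), -0.27 (MHC-deficient) and -1.34 (OT), and Gimap4 by 1.39, 0.78 and 0.15, where the first pair has 1 F5 mouse. These 3 calls rested on few mice. The number called was 0 without F5 replicate 1 or any 1 of the 4 MHC-deficient mice, 1 without either AND mouse, 2 without either OT-II mouse, 3 without OT-I replicate 1 and 4 without OT-I replicate 2.

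**Figure D4:**
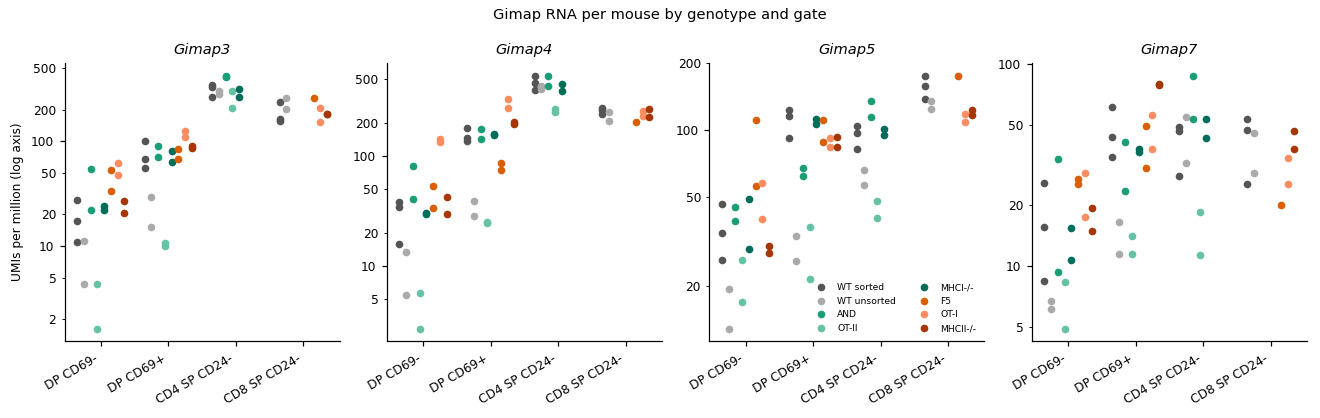
UMIs per 1000000 (log axis) of Gimap3, Gimap4, Gimap5 and Gimap7 by genotype in DP CD69-, DP CD69+, CD4 SP CD24- and CD8 SP CD24- cells, 1 point per mouse. Gimap4 in DP CD69- cells was highest in OT-I mice (133 and 145 CPM) and, among lineage-restricted genotypes, lowest in OT-II (2.71 and 5.72 CPM), near 1 unsorted wild-type mouse (5.48 CPM).

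Against wild-type mice of the same sort, mature cells of MHCI-/-, OT-II, MHCII-/- and OT-I mice gave 0 called members by edgeR. AND and F5, unsorted mice from experiments with no unsorted wild-type mouse, were not compared with wild-type mice. The share of all genes called was 0.0505% for MHCI-/- and 0.0303% for OT-II in CD4 SP CD24- cells, and 0.0111% for MHCII-/- and 0.0333% for OT-I in CD8 SP CD24- cells. At an unadjusted p under 0.05 there were 0, 3, 0 and 0 members. Their log2 differences ran from -0.15 (Gimap6) to 0.28 (Gimap7) in MHCI-/-, from -1.64 (Gimap7) to 0.26 (Gimap9) in OT-II, from -0.41 (Gimap5) to 0.01 (Gimap9) in MHCII-/- and from -0.34 (Gimap7) to 0.15 (Gimap9) in OT-I mice. The 3 with an unadjusted p under 0.05 in OT-II mice were Gimap7, Gimap6 and Gimap4. Gimap7 stood at 11.3 and 18.5 CPM in OT-II, from 7 and 5 UMIs, and at 54.3 and 32.2 CPM in unsorted wild-type mice (log2 -1.64 ± 0.53, adjusted p = 0.75). Gimap4 stood at 271 and 251 CPM against 408 and 438 CPM (log2 -0.63 ± 0.26, adjusted p = 0.841). Both groups, of 2 mice each, were separate in CPM for these genes, and no call was made.

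Among TCRB+ CD4 SP cells of wild-type mice, those with Foxp3 RNA, which encodes the defining factor of regulatory T cells, were compared with those without it. Foxp3+ cells numbered 27, 62, 49, 46 and 23, and Foxp3- cells 780, 1441, 953, 987 and 895. Gimap3 stood at 436, 498.5, 459, 499 and 586 CPM in Foxp3+ and at 267.5, 316, 235, 231 and 233 CPM in Foxp3- cells, with no overlap (log2 0.91 ± 0.11, adjusted p = 9.85e-15 by edgeR). Gimap7 stood at 104, 104, 64.9, 153 and 83.7 CPM in Foxp3+ cells, from 5 to 41 UMIs a mouse, and at 54.6, 62.5, 38.5, 61.9 and 35.7 CPM in Foxp3- cells, also with no overlap (log2 0.99 ± 0.18, adjusted p = 2.06e-06).

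In all 4 members were called higher in Foxp3+ cells and 0 lower, where 11.5% of genes were called and 5.61% were called higher. Gimap1 was higher in 5 of 5 mice (495 ± 151 against 318.5 ± 48.9 CPM, SD, n = 5, log2 0.68 ± 0.11, adjusted p = 1.6e-08). Gimap5 was higher in 4 of 5 mice (log2 0.62 ± 0.17, adjusted p = 0.0033) and rested on 3 UMIs in unsorted replicate 5. It was not called by DESeq2 (adjusted p = 0.0623) or without sorted replicate 2 (adjusted p = 0.0839) or unsorted replicate 4 (adjusted p = 0.121). Gimap4 (log2 0.06, adjusted p = 0.824), Gimap6 (-0.04, adjusted p = 0.885), Gimap8 (0.31, adjusted p = 0.252) and Gimap9 (0.13, adjusted p = 0.641) did not pass.

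Within the 3 sorted mice Gimap3 differed by log2 0.76 and Gimap7 by 0.79, and within the 2 unsorted mice by 1.16 and 1.32. RNA UMIs per cell (total UMIs over cells in each mouse) had medians over the mice of 5274 in Foxp3+ and 5386 in Foxp3- cells. Of 14 late maturation genes 7 were higher and 3 lower in Foxp3+ cells, and of 10 early DP genes 3 were lower, where 5.61% of all genes were higher and 5.88% lower. The part of maturation stage in the Gimap difference was not tested. Foxp3+ here means at least 1 Foxp3 UMI, so a regulatory cell in which that RNA was missed counts as Foxp3-, and a cell with 1 stray UMI counts as Foxp3+. Of the 207 Foxp3+ cells 106 had 1 Foxp3 UMI. The share with Foxp3 was 3.93% of 5263 wild-type CD4 SP cells (median 4924 RNA UMIs) against 0.141% of 8524 DP CD69- cells (2684), 0.25% of 13575 DP CD69+ cells (2611) and 0.794% of 1386 CD8 SP cells (6339). With each cell thinned to 2000 UMIs, and 285, 2438, 4528 and 38 shallower cells left out, the shares were 2.31%, 0.0493%, 0.166% and 0.445%. In Rag1-/- AND mice, 11 and 2 CD4 SP cells were Foxp3+, 0.512% of 2539 (median 4643 RNA UMIs), a share below that in wild-type CD8 SP cells. Whether those cells express Foxp3 cannot be told from these counts.

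**Figure D5:**
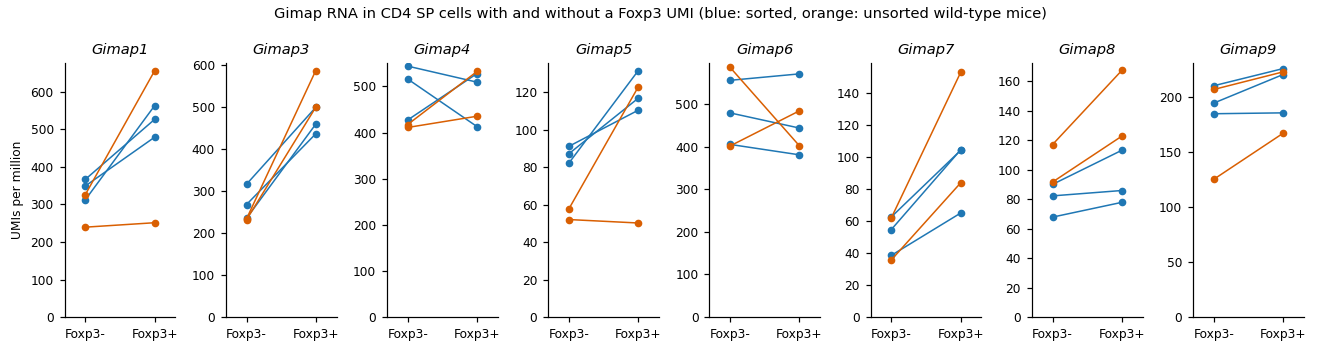
UMIs per 1000000 of each Gimap gene in Foxp3- and Foxp3+ CD4 SP cells, 1 line per wild-type mouse, on linear axes that start at 0. Gimap3 and Gimap7 were higher in Foxp3+ cells of each mouse with no overlap between the groups, whereas Gimap4 and Gimap6 showed no called difference.

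Interferon-induced GTPases are a separate family of immune GTPases, and they gave a contrast within mature SP cells. Interferon-like SP CD24- cells, with UMIs of at least 3 of the 5 response genes Ifit1, Ifit3, Isg15, Irf7 and Usp18 (142, 148, 132, 170 and 47 cells) were set against the other SP CD24- cells of the same mice (275, 430, 460, 282 and 581 cells). Of the interferon-induced GTPases 13 of 15 tested were higher, where 2.34% of all genes were, among them Iigp1 (log2 2.40 ± 0.14), Gbp7 (1.41 ± 0.10), Igtp (1.26 ± 0.08) and Irgm1 (1.24 ± 0.09). Since these cells were defined by response RNA, a rise of such GTPases follows from the choice of cells. Of the Gimap genes 0 of 8 were called (1 at an unadjusted p under 0.05) by edgeR, where 2.96% of genes were called, and their log2 differences ran from -0.11 (Gimap7) to 0.18 (Gimap8). Mean Gimap3 was 265 CPM in interferon-like and 283 CPM in the other cells, and mean Gimap4 was 397 and 392 CPM.

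Other gene groups with roles near those of the Gimap proteins were counted over the wild-type steps. The fits used for these counts include cycling-like cells, which differed in number between the DP gates as given above. Of all genes tested 16.6% were higher and 16.2% lower at the CD69 step, 17.6% higher and 18.1% lower at entry into CD4 SP, and 16.7% higher and 18.4% lower at entry into CD8 SP. Of 13 survival and death genes, 9 were higher and 3 lower in DP CD69+ than in DP CD69- cells, among them Il7r, the receptor chain for the survival cytokine IL-7 (log2 2.93 ± 0.39), Bcl2, which blocks mitochondrial death (2.43 ± 0.28), and Bcl2l11, which encodes the death-promoting BIM (1.86). On entry into the CD4 SP CD24+ stage Il7r rose by another log2 2.47 and Bcl2 by 1.12 ± 0.26, while Bcl2l1 fell by 0.98. Of 13 autophagy genes (LC3 and GABARAP type proteins, the partners of GIMAP6, and their machinery), 4 were higher and 0 lower at the CD69 step. At entry into CD4 SP 0 were higher and 6 lower, and at entry into CD8 SP 0 were higher and 9 lower.

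Interferon-induced GTPases also rose over these steps, 8 of 15 at the CD69 step, 12 of 15 at entry into CD4 SP (Iigp1 log2 3.96 ± 0.41) and 12 of 15 at entry into CD8 SP, with 0, 1 and 1 lower. Of 10 TCR response genes all 10 rose at the CD69 step. Since these gates were set by surface CD69, itself a mark of TCR signalling, such a rise follows in part from the choice of cells. Of 14 late maturation genes all 14 rose at entry into CD4 SP (S1pr1, the exit receptor for sphingosine 1-phosphate, log2 3.74 ± 0.22) and 12 at entry into CD8 SP. Late maturation genes went on rising with loss of CD24, 10 of 14 in CD4 SP and 9 of 14 in CD8 SP cells (7.5% and 3.17% of all genes), where Gimap3 and Gimap4 were not called.

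Members were compared with each other over the 30 sums of wild-type mouse and gate, which share libraries and stages, so that correlations are descriptions only. Of 28 pairs of members 25 had a Pearson r above 0, from -0.37 to 0.98, and 24 did after removing the mean of each mouse (median 0.62). The r of a member with the mean of the family was highest for Gimap7 (0.94), Gimap4 (0.88), Gimap8 (0.84) and Gimap3 (0.82) and lowest for Gimap9 (0.18), although each member is part of that mean. Among 5793 genes with a mean of at least 20 CPM, the 10 outside the family whose level was most like that mean were Orai1 (r = 0.95 over 30 sums), Junb, Pacsin1, Bcl2, Fam134b, Fam3c, Galnt6, Pglyrp2, Tuba4a and Inpp4b (0.93).

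Of the 26 other genes of the neighbourhood that the files hold, 8 passed the filter on low counts in the wild-type fit. Zfp467 (chr6:48427697-48445825, minus), at a mean of 14.03 CPM, rose at the CD69 step (log2 1.48 ± 0.30, adjusted p = 0.000378 by edgeR) and at entry into CD4 SP (2.51 ± 0.24, adjusted p = 4.04e-09), and was not called at entry into CD8 SP (-0.23, adjusted p = 0.709). The transcript 4833403J16Rik, which lies between Gimap5 and Gimap3 (chr6:48755338-48756368) and had a mean of 7.34 CPM, rose at entry into CD8 SP (log2 0.99, adjusted p = 0.0214) and was not called at the CD69 step (0.46, adjusted p = 0.212). Krba1 fell at entry into CD8 SP (log2 -0.42 ± 0.16, adjusted p = 0.0437 by edgeR). Tmem176b fell at entry into CD4 SP (log2 -0.53 ± 0.20, adjusted p = 0.042). The rest of these neighbours were not called at any of the steps. Of all genes tested, 32.7%, 35.8% and 35.1% were called at the CD69 step, CD4 entry and CD8 entry.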

How the data were processed

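RNA and 111 surface antibodies were measured by CITE-seq (10x Genomics 3' v3) in 19 lanes from 17 mice. The authors made the deposited counts with Cell Ranger 3.1.0 (per the submitters' processing notes, with mm10, GRCm38), as raw UMI counts per gene, antibody and barcode, with no normalization. Cells with at least 200 genes, at most 15% mitochondrial UMIs, 1000 to 10000 antibody UMIs and at least 70 antibodies were kept. Cells with UMIs of at least 3 B or myeloid markers, or with 10% or more hemoglobin UMIs, were left out of the gates. Doublets were not called, and leaving out the cells with the most RNA UMIs, in the number of doublets expected (0.8% per 1000 barcodes), was an alternative. Gates were set by Otsu thresholds on log2(antibody UMIs per 10000 + 1) per experiment. UMIs were summed per mouse and gate (at least 20 cells), with the 2 lanes of wild-type replicates 4 and 5 added. edgeR 4.0.16 (TMM, filterByExpr, quasi-likelihood) tested all genes, with the mouse as a block for stages and the pair of genotypes for lineages. SE is |log2 fold change| divided by the root of F. DESeq2 1.42.0, other filters, scalings, thresholds and left-out cells or mice were alternatives. Replicate numbers pair AND with F5 by experiment. The members are given in each comparison by value, or by count and range where few were called, and from each other list up to 4 genes with the smallest p. The members and lists were chosen with earlier results of these data known. The fits were tested on simulated data.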

Additional observations from a re-analysis of the deposited data

Results flagged for a closer look

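In 10 of 128 groups of 5 or 6 mice (7.81%) 1 mouse stood apart from the others by Dixon's criterion. Chance alone would meet it in about 5% of independent groups of alike mice. These groups share mice across genes and gates and pool sorts or genotypes, so the share of 7.81% cannot be judged against 5%. Unsorted wild-type replicate 5 was the mouse that stood apart in 5 of the 10. In CD4 SP CD24- cells it was high for Gimap8 (115 CPM, next 76.2) and low for Gimap9 (111 CPM, next 155). In CD8 SP CD24- cells it was low for Gimap1 (165 CPM, next 257) and Gimap9 (55.0 CPM, next 115). In Foxp3+ CD4 SP cells it was low for Gimap5 (50.2 CPM, from 3 UMIs, next 110).

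F5 replicate 1 was high for Gimap5 among CD8-fated mice in each gate, at 111 CPM in DP CD69- cells (next 58.0), 111 CPM in DP CD69+ cells (next 93.4), 175 CPM in CD8 SP CD24+ cells (next 123) and 175 CPM in CD8 SP CD24- cells (next 123), the last from 40 cells. AND replicate 2, the mouse with the lowest share of barcodes kept, was high for Gimap7 among CD4-fated mice in DP CD69- cells (33.8 CPM, next 15.3).

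Entry into the SP stage from DP CD69+ cells differed between the CD8 and CD4 sides for 6 members by edgeR, where 19.2% of genes were called. It was larger on the CD8 side for Gimap5 (log2 1.01) and smaller or more negative there for Gimap4 (-0.95), Gimap9 (-0.66), Gimap6 (-0.61), Gimap8 (-0.53) and Gimap1 (-0.28). These values are those of CD8 SP CD24+ against CD4 SP CD24+ cells given above, a comparison added after seeing the data. Calls of Gimap4, Gimap8 and Gimap1 were lost with cycling-like cells left out, and without some single mice.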

How the results depend on the processing

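Of 3512 member values under alternatives, 3276 kept their direction and side of the threshold, 148 lost and 84 gained a call, and 4 values called under either setting changed sign. Another 160 uncalled values changed sign and stayed uncalled. Of 439 counts of called members 49 moved by over 1.5 times, and scaling by relative log expression in place of TMM changed a count by at most 1. The 4 changes of sign came with cycling-like cells left out of the CD69 comparison, for Gimap1 in wild-type (-0.22), CD4-fated (-0.15) and CD8-fated mice (-0.24) and Gimap9 in wild-type mice (-0.032). The causes of the changes below were not tested. Counts below are mostly given without the share of all genes called under the same alternative, which also moved. For the mature lineage comparison that share was 8.26%, and 16.6% with a replicate block. At the wild-type CD69 step it was 43.6% in sorted and 11.2% in unsorted mice. A change in a count below is therefore not shown to be particular to the Gimap genes. Some tested values rest on few UMIs, such as 2 for Gimap7 in interferon-like cells and 3 for Gimap5 in Foxp3+ cells of unsorted wild-type replicate 5, 3 for Gimap3 in DP CD69- cells of OT-II replicate 2 and 4 for Gimap7 in CD8 SP CD24- cells of F5 replicate 1.

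Without the mouse as a replicate block the number of called members was 2 at wild-type entry into CD4 SP (5 with it), 0 for CD4 maturation (1), 3 at entry into CD8 SP (5), 0 for CD8 SP against CD4 SP CD24- (4), 0 for the CD24+ gates (6), 1 for the CD69 step of CD4-fated mice (8), 2 for their entry (6), 1 for CD8-fated entry (5) and 2 for Foxp3 (4). Between lineage-restricted genotypes the replicate number goes with the experiment for AND and F5, and with lane depth for OT-II and OT-I. It also goes with depth for the MHC-deficient mice, where replicate 2 was the deeper. Median RNA UMIs per kept cell were 5060 against 3486 in MHCI-/- and 5578 against 4713 in MHCII-/- mice. Deviations of same-numbered mice correlated from -0.29 (AND with F5, DP CD69-) to 0.89 (OT, DP CD69+), and a replicate block moved the mature lineage count from 3 to 6.

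CD4 maturation in wild-type mice (1) gave 3 with thresholds raised, 0 with thresholds lowered, 2 without cycling-like cells, 2 with CD69 in place of CD24 and 4 in sorted mice only. CD8 SP against CD4 SP CD24+ (6) gave 3 without the cells of highest RNA content, 3 with thresholds raised, 3 without cycling-like cells and 3 with CD69. The CD69 step of CD4-fated mice (8) gave 1 without cycling-like cells. CD4-fated maturation (0) gave 2 with thresholds raised and 1 without cycling-like cells, and CD8-fated maturation (0) gave 1 and 1. The lineage comparison gave, in DP CD69- cells (0), 2 without a filter on low counts and 2 in the OT pair only. In DP CD69+ cells (0) it gave 1 with DESeq2, 4 without a filter and 2 in the MHC-deficient pair only. In mature cells (3) it gave 5 with DESeq2, 0 with thresholds lowered, 0 with at least 50 cells, 1 without cycling-like cells, 1 in AND with F5 only (with 1 F5 mouse, assumed to vary like the others), 6 in the MHC-deficient pair only, 0 in the OT pair only and 6 without lanes 18 and 19. Foxp3 gave 2 in unsorted mice only, and could not be given with at least 50 cells a mouse.

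Leaving out 1 mouse at a time gave 8 to 8 called members at the wild-type CD69 step, 4 to 6 at CD4 entry, 0 to 1 for CD4 maturation, 5 to 6 at CD8 entry, 0 to 0 for CD8 maturation, 3 to 5 and 4 to 5 for CD8 SP against CD4 SP without and with CD24, and 3 to 4 for Foxp3. CD4-fated mice gave 6 to 8, 5 to 7 and 0 to 0 at the CD69 step, entry and maturation, and CD8-fated mice 6 to 8, 3 to 5 and 0 to 0. The lineage comparison gave 0 to 0, 0 to 1 and 0 to 4 in DP CD69-, DP CD69+ and mature cells. The other comparisons, with 0 members called, stayed at 0.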

Other observations

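Gimap RNA was also summed in rarer classes of thymus cells defined by marker RNA, with no test between classes, and several of the levels rest on few UMIs. In pre-TCR DN-like cells, CD4-CD8- cells with Ptcra RNA and no surface TCRB, as found before the DP stage, Gimap4 was near 0 in 6 mice, from 0 UMIs in unsorted wild-type replicate 4 (111 cells, where 3 UMIs would be 1.08 CPM) and OT-II replicate 2 (162 cells, 2.14 CPM) to 4.09 CPM in unsorted wild-type replicate 5. Gimap3 ranged there from 0.415 to 3.07 CPM. Gimap1 (51.4 to 196 CPM) and Gimap9 (43.6 to 104 CPM) were well above both in the same cells. CD4-CD8- cells with Trdc RNA and no Ptcra RNA had Gimap4 at 23.2 and 30.2 CPM in unsorted wild-type replicates 4 and 5 (49 and 77 cells). Cells chosen in this way were also found in Rag1-/- mice (476 and 38 cells in AND and 95 cells in F5 replicate 2), which form no gamma-delta TCR, so they are not named as gamma-delta T cells.

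B-like cells of 3 mice (29, 26 and 24 cells in OT-I replicate 1 and unsorted wild-type replicates 4 and 5) held each member, with Gimap1 at 407, 283 and 419 CPM, Gimap6 at 463, 176 and 344 CPM and Gimap4 at 207, 152 and 254 CPM. Myeloid-like cells of 8 mice were lower in Gimap8 (3.64 to 18.6 CPM) than the B-like cells (41.0 to 89.7 CPM), with no overlap. Gimap1, Gimap3, Gimap4 and Gimap7 were likewise lower with no overlap, whereas the ranges of Gimap5, Gimap6 and Gimap9 overlapped. Rag1, expressed by DP cells and by developing B cells, was at 168 to 254 CPM and Arpp21 at 89.7 to 336 CPM in the B-like cells of the 2 wild-type mice, and the part of RNA from DP cells in these levels was not tested.

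Cycling-like SP cells of 4 wild-type mice (42, 85, 74 and 93 cells in sorted replicates 2 and 3 and unsorted replicates 4 and 5) were low in Gimap7, at 14.9, 12.3, 13.2 and 12.2 CPM, against 39.8 to 69.02 CPM in the other SP cells of 5 mice. Gimap4 stood at 216, 226, 156 and 233 CPM in these cells against 383 to 503.5 CPM, and Gimap6 at 183, 184, 131 and 259.6 CPM against 394.5 to 561 CPM, without overlap in either.

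CD4 SP CD24+ cells found in MHCII-/- mice (43 and 104 cells), which arise without MHC class II, had Gimap4 at 192 and 255 CPM, Gimap5 at 111.6 and 124 CPM and Gimap9 at 312 and 308 CPM. No test was made on these cells. The study reports a CD4+CD8lo phase for CD8-fated cells, and whether such cells fell into this gate was not tested.

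In the third experiment the second mouse of each genotype was loaded in shallower lanes (median 1519 to 3192 RNA UMIs per kept cell against 2880 to 7259). Over 17 pairs of gate and genotype, this mouse was lower than the first in 17 for Gimap9 and 16 for Gimap1, and higher in 17 for Gimap8 and 15 for Gimap6. These pairs are not independent. They come from unsorted wild-type replicates 4 and 5 and from replicates 1 and 2 of OT-I and OT-II, with 5 or 6 gates each. Depth and mouse cannot be told apart there.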
